A study of Mus musculus with 6 samples.

Results

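The SREBP and ChREBP regulators of lipid synthesis were followed as 8 genes chosen by symbol: Srebf1, Srebf2, Mlxipl, Mlx, Mlxip, Scap, Insig1 and Insig2. All 8 were found among the 53342 genes of the deposited table. Total RNA had been sequenced from 6 libraries of 3T3L1, a mouse fibroblast-like line that stores lipid once it is turned into adipocytes. Every confluent culture had been given IBMX (0.5 mM), dexamethasone (1 µM) and insulin (1 µg/ml) for 2 days, followed by insulin alone. The 3 groups of 2 libraries were untreated, DMSO as solvent, and LTK-14A, which the series title describes as a butyrylation inhibitor. All 3 groups thus carried the differentiation mixture, and untreated means without solvent or inhibitor. How much LTK-14A was used, and from when, is not stated in the labels. The labels do not tell whether a group holds separate cultures. The p-values therefore reflect only how far these libraries spread, which may be technical.

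Sterol regulatory element-binding proteins (SREBPs) are transcription factors made as precursors in the membrane of the endoplasmic reticulum. Scap escorts them to the Golgi, where proteases release the active part. When sterols are plentiful, Insig proteins hold Scap in the endoplasmic reticulum. Srebf1 encodes SREBP-1, which mainly drives fatty acid synthesis, and Srebf2 encodes SREBP-2, which mainly drives cholesterol synthesis. Mlxipl encodes ChREBP, a glucose-responsive factor that turns on lipogenic genes in liver and fat. Mlxip encodes the related glucose sensor MondoA, and Mlx encodes the partner with which both bind DNA. SREBP activity is set largely by cleavage and ChREBP activity largely by glucose metabolites, neither of which RNA levels show.

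With LTK-14A, 4 of the 8 genes fell against DMSO and 0 rose. Mlxipl was nearly lost, Insig1 and Srebf1 fell, and Mlx fell by less. The genes Srebf2, Mlxip, Scap and Insig2 did not pass the threshold. DMSO alone changed none of the 8 past the threshold. A difference is called here when its Benjamini-Hochberg adjusted p over all 24139 tested genes is below 0.05 in limma. By this rule 10.6% of all tested genes changed between LTK-14A and DMSO, 6.58% lower and 3.98% higher. Calls were more common among the 13179 genes whose mean reached 20, as it did for all 8. Of these, 3215 changed, 1894 lower and 1321 higher, and the count for the 8 stayed at 4. The values of 5 of the 8 genes were lower in both LTK-14A libraries than in both DMSO libraries, and those of 1, Srebf2, were higher. Such separation was common: it held for 54.3% of tested genes, 29.8% lower and 24.5% higher. An unadjusted p below 0.05 was found for 5 of the 8 and for 26.3% of tested genes. All 8 genes passed the filter on low values.

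The values are normalized values recovered from the deposited double-log scale. They summed to 6122687 to 7091007 per library. Per-library read depth is unknown, so no counting interval is given. Untreated replicate 2 stood apart, with ribosomal RNA loci taking 16.4% of its total, where the remaining libraries had 8.60% to 10.6%. Adipocyte identity was checked with 14 markers, all of which were above 0 in at least 1 library of every group. With LTK-14A, Lep was at 0 and 4.58 and Cfd at 2.07 and 4.56. The values of the 14 summed to 87064 to 114998 in the 4 libraries without LTK-14A and to 35927 and 38555 with it. Lpl, the highest of the 14, weighed most, with a mean of 55437 with DMSO and 32112 with LTK-14A. The median log2 fold change of the 14 against DMSO was -3.63. Against DMSO, all 14 fell, and 13 did with a pseudocount of 0.1, after quantile normalization, without the trend or without any one of the DMSO and LTK-14A libraries. The values of 10 preadipocyte and fibroblast markers summed to 70521 and 107872 in untreated libraries, 66199 and 71649 under solvent, and 97270 and 101755 under LTK-14A. The LTK-14A sums thus lay above those of DMSO but between those of the untreated libraries. High genes rule such sums, and Fn1 alone went from a mean of 11374 with DMSO to 33629 with LTK-14A. Against DMSO 4 of the 10 rose (Fn1, Vim, Thy1 and Dlk1), and 1 did without the trend or without any one of the DMSO and LTK-14A libraries. Over all tested genes 3.98% were called higher against DMSO. Of the 6 that did not pass, Pdgfra, Pdgfrb, Ly6a and Col3a1 had log2 fold changes of -0.26, -0.13, -0.27 and -0.12. Those of Col1a1 and Cd34 were 0.30 and 0.83. In both LTK-14A libraries 5 of the 10 lay above both DMSO libraries and 3 below, against 24.5% and 29.8% of tested genes. Against untreated 3 rose, and Dlk1 did not pass. Of 14 markers of immune, endothelial, epithelial, muscle and liver cells, 7 were listed at 0 in all libraries, Ptprc, Itgam and Epcam among them. The macrophage marker Cd68 rose, at 14.9 and 16.6 under solvent against 62.3 and 67.2 under LTK-14A, a call that was lost without any one of these 4 libraries.

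The DNA before the start of these genes is shown because elements bound by the same families of factors are known from such regions. RefSeq transcript starts gave 14 windows of 250 bases for the 8 genes. Windows were searched on both strands for CACGTG, an E-box that MLX dimers and SREBPs can bind, for TCACNCCAC, a sterol element, and for CCAAT, bound by the SREBP partner NF-Y. CACGTG was in 4 of the 14 windows and in 6.02% of 32851 windows of the same length. TCACNCCAC was in 1 and in 1.05%, and CCAAT in 8 and in 33.8%. The core of an LXR element was added as a pattern after a window of Srebf1 had been read. It was in that window alone among the 14, at 2 places, and in 0.0274% of all windows. The windows below are from GRCm38.p6, 5′ to 3′ on the strand of the gene, without annotated exons. Capitals mark a match to any of the 4 patterns on either strand.
Mlxipl, upstream start, chr5:135089640-135089889, plus strand: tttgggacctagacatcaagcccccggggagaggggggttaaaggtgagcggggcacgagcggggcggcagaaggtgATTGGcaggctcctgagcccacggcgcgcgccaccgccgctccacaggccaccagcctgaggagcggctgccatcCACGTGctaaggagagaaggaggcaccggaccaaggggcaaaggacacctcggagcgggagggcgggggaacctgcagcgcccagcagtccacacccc
Mlxipl, downstream start, chr5:135106641-135106890, plus strand: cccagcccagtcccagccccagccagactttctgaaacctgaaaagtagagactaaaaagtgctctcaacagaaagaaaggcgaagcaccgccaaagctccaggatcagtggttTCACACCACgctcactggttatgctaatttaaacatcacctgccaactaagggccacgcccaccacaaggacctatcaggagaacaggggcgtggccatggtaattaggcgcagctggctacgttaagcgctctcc
Srebf1, downstream start, chr11:60210472-60210721, minus strand: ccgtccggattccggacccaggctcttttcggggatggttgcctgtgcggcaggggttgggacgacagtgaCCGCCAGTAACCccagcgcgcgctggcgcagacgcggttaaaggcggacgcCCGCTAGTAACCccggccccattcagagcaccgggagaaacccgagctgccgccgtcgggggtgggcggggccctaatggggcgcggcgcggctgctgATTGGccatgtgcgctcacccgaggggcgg
Insig1, chr5:28071162-28071362, plus strand: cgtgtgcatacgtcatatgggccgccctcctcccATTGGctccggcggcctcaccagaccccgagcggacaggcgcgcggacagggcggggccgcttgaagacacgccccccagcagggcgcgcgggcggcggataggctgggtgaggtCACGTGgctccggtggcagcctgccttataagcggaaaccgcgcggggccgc
Srebf2, chr15:82147019-82147180, plus strand: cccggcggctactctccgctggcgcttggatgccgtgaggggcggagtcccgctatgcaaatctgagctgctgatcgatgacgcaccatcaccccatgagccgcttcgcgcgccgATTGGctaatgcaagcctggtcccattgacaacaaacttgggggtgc
The upstream start of Mlxipl has an E-box whose first base lies 98 bases before the start. Its downstream start, 17001 bases further on, has the sterol element TCACACCAC at 136 bases. The downstream window of Srebf1 holds the LXR pattern at 179 and 128 bases and CCAAT, read on the other strand, at 30. Insig1 has an E-box at 101 bases and Srebf2 a CCAAT on the other strand at 135. Of the windows not shown, those of Mlx and of the second start of Scap each hold an E-box, 40 bases before the start. That of Scap lies downstream of its first start, within an annotated exon. A match describes the letters and not a bound site.

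Mlxipl (ENSMUSG00000005373, chromosome 5, 135089890 to 135138382 in mm10), the ChREBP gene, stood at 142 and 146 in the untreated libraries, 99.4 and 99.0 with DMSO, and 0 and 4.07 with LTK-14A. Both LTK-14A libraries were far below all others, and the 3 groups did not overlap. Against DMSO the log2 fold change of value plus 1 was -5.48 (SE 0.67, adjusted p = 0.00294, limma). Its 95% limits were -7.04 and -3.91. Only 0.0870% of tested genes had a lower fold change. Against untreated it was -6.01 (SE 0.67, adjusted p = 0.00172, limma). These 2 comparisons share the LTK-14A libraries. The call held in all 14 alternatives for each, and against DMSO the fold change ranged from -7.26 to -4.30. The double-log scale cannot hold a value of 1 or less, and the lowest value above 0 was 1.00 in every library. A listed 0 can thus be any value up to 1, or a failed estimate. Mlxipl was at 0 in LTK-14A replicate 1 alone. Genes listed at 0 in 1 library while at 5 or more in the other 5 numbered 3 and 14 in untreated, 5 and 6 in DMSO and 18 and 23 in LTK-14A libraries. With 20 or more in the other 5 there were 2 and 4 in untreated libraries and 0 in each of the rest, a condition that Mlxipl, at 4.07 in the other LTK-14A library, could not meet. Whether its 0 is a failed estimate or a value of up to 1 was not tested. Mlxipl is transcribed from 2 annotated RefSeq starts that give different isoforms of ChREBP, and a value per gene does not separate them.

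The fall of Mlxipl went with that of the adipocyte markers, whose part in the result was not tested. In bulk RNA, fewer adipocytes and less RNA per adipocyte cannot be told apart. Among 10501 named protein-coding genes whose mean reached 20, the patterns most like that of Mlxipl over the 6 libraries were those of Selenbp1, Lep and Cmbl. Likeness was the root mean square difference of centred log2 values, which was 0.12, 0.30 and 0.30. Selenbp1 encodes a selenium-binding protein and Lep the adipocyte hormone leptin. In the DMSO libraries Selenbp1 had values of 87.4 and 112, and in the LTK-14A libraries 0 and 4.58.

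**Figure D1:**
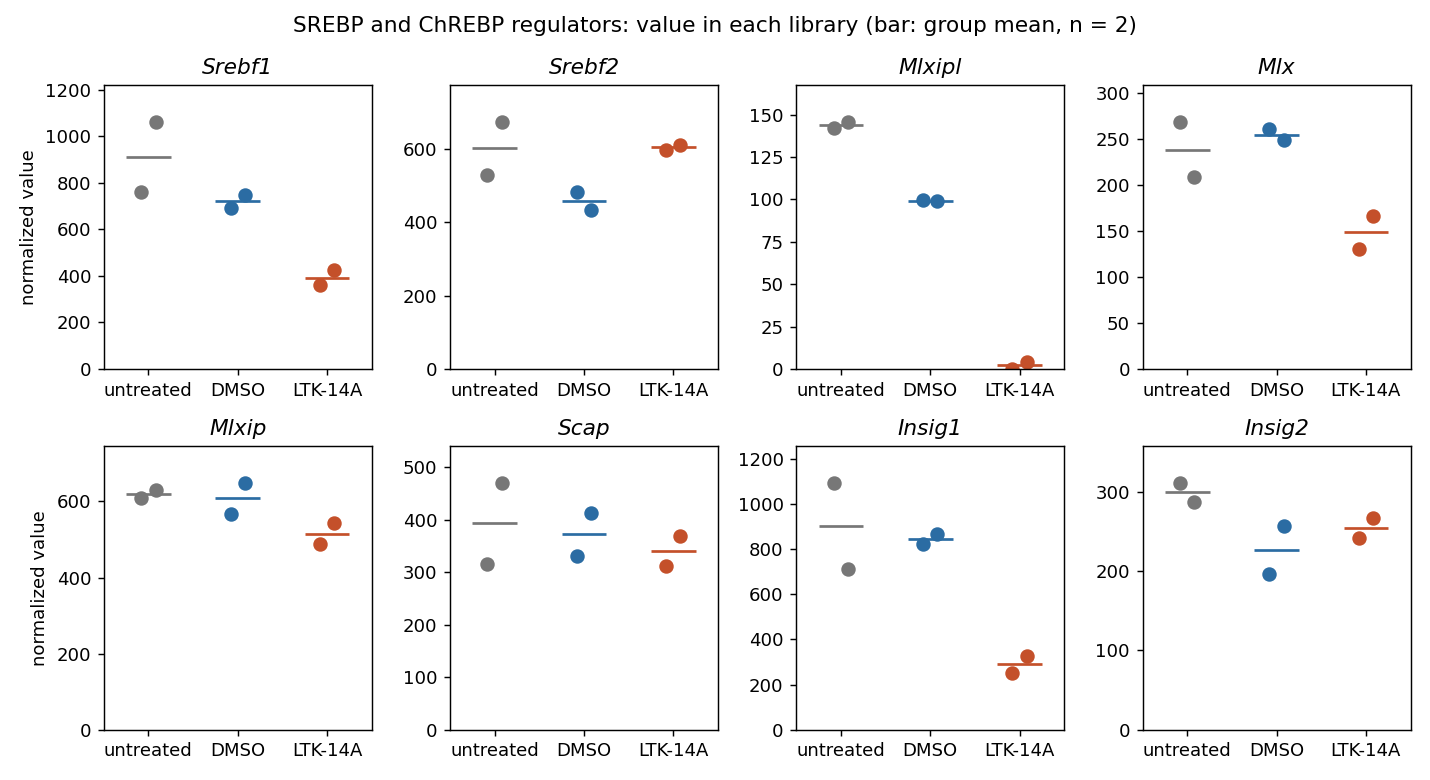
Normalized value (linear vertical axis from 0, own scale per gene) of each of the 8 genes in the 2 libraries of each group, with a bar at the group mean. Mlxipl falls to 0 and 4.07 with LTK-14A, Insig1, Srebf1 and Mlx lie below both other groups, and the values of Scap overlap in all groups.

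Mlx (ENSMUSG00000017801, chromosome 11, 101087277 to 101092207), the shared DNA-binding partner, was at 268 and 208 in untreated cells, 261 and 249 with DMSO, and 131 and 166 with LTK-14A. The LTK-14A libraries lay below all others. The log2 fold change of Mlx against DMSO was -0.79 (SE 0.19, adjusted p = 0.0401, limma). The call was lost without any one of the 4 DMSO and LTK-14A libraries, with an adjusted p of 0.0968 to 0.232. It was also lost with a pseudocount of 0.1 (0.0540), after quantile normalization (0.0640) and without the variance trend (0.150). Against untreated the log2 fold change was -0.68 (adjusted p = 0.0563, limma). Without untreated replicate 2 the adjusted p was 0.0327, and among genes whose mean reached 20 it was 0.0218. Of the exon bases of Mlx, 19.3% also belong to Psmc3ip on the opposite strand. Values of Psmc3ip were 70.9 and 69.2 for DMSO, 28.7 and 39.9 for LTK-14A. Whether reads were counted by strand is not known, so the value of Mlx is uncertain.

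Mlxip (ENSMUSG00000038342, chromosome 5, 123394798 to 123457932), the MondoA gene, was at 609 and 629, 568 and 649, and 488 and 543 in untreated, DMSO and LTK-14A libraries. The LTK-14A libraries were the lowest, by a small margin. The log2 fold change against DMSO was -0.24 (SE 0.13, adjusted p = 0.298, limma), with 95% limits of -0.54 and 0.06. Per kilobase of exon, Mlxipl had 0.35 and 0.35 of the level of Mlxip in untreated libraries and 0.26 and 0.23 with DMSO. With LTK-14A it had 0 and 0.011. Levels per kilobase, here and below, assume values not already divided by gene length, which no source states.

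Srebf1 (ENSMUSG00000020538, chromosome 11, 60199089 to 60222581) was at 760 and 1061 in untreated cells, 693 and 748 with DMSO, and 360 and 425 with LTK-14A. All 3 groups were separate, with LTK-14A the lowest. The log2 fold change was -0.88 against DMSO (SE 0.18, adjusted p = 0.0222, limma) and -1.20 against untreated (SE 0.18, adjusted p = 0.00560, limma). Without any one of the DMSO or LTK-14A libraries the first call was lost, at an adjusted p of 0.0951 to 0.176, and without the trend it was 0.132. The second was lost without LTK-14A replicate 1 (0.0750) and without the trend (0.0649). RefSeq gives Srebf1 3 starts, and the transcripts of SREBP-1a and SREBP-1c, which begin at different first exons, are summed in these values. The patterns most like that of Srebf1 were those of Mlf2, Prx and Klc2, with differences of 0.056 to 0.063.

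Srebf2 (ENSMUSG00000022463, chromosome 15, 82147266 to 82205376) was at 530 and 674 in untreated cells, 484 and 433 with DMSO, and 599 and 611 with LTK-14A. The LTK-14A libraries lay above both DMSO libraries and between the untreated ones. The log2 fold change was 0.40 against DMSO (SE 0.15, adjusted p = 0.137, limma) and 0.02 against untreated (SE 0.15, adjusted p = 0.960, limma). Fitted on DMSO and LTK-14A alone, the first passed, with an adjusted p of 0.0391. It also passed when untreated replicate 1 (0.0381) or 2 (0.0395) was left out. The microRNA gene Mir33, in an intron of Srebf2, was listed at 0 in all 6 libraries.

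Within each library, the level of Srebf1 per kilobase of exon divided by that of Srebf2 was 1.83 and 2.01 in untreated cells, 1.83 and 2.20 with DMSO, and 0.77 and 0.89 with LTK-14A. The ratio was thus above 1 in the 4 libraries without LTK-14A and below 1 in both with it. Its mean log2 differed by -1.28 between LTK-14A and DMSO (exact permutation test, two-sided p = 0.333). That is the smallest p that 2 against 2 libraries allow. Undivided by exon length, Srebf1 also exceeded Srebf2 in the 4 libraries without LTK-14A and lay below it with LTK-14A.

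Insig1 (ENSMUSG00000045294, chromosome 5, 28071363 to 28078662), itself a target of SREBPs, was at 1094 and 713 in untreated cells, 824 and 866 with DMSO, and 253 and 327 with LTK-14A. The untreated libraries lay on either side of the DMSO libraries, and both LTK-14A libraries were below all others. The log2 fold change was -1.55 against DMSO (SE 0.22, adjusted p = 0.00508, limma) and -1.62 against untreated (SE 0.22, adjusted p = 0.00369, limma). Without DMSO replicate 1, DMSO replicate 2 or LTK-14A replicate 1 the adjusted p of the first rose to 0.0550, 0.0653 and 0.0708, and without the trend to 0.0607. The second was lost without LTK-14A replicate 1 (0.0551) and without the trend (0.0522). The genes most like it were Gbp10, Nsdhl and Slfn8, with differences of 0.062, 0.081 and 0.10.

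Insig2 (ENSMUSG00000003721, chromosome 1, 121304353 to 121332589), the second Insig gene, was at 312 and 287, 197 and 256, and 242 and 268 in untreated, DMSO and LTK-14A libraries. LTK-14A overlapped with DMSO, and the log2 fold change was 0.18 (SE 0.17, adjusted p = 0.565, limma), with 95% limits of -0.22 and 0.57. Per kilobase of exon Insig1 exceeded Insig2 by a ratio of 3.94 and 2.79 in untreated cells, 4.70 and 3.79 with DMSO, and 1.17 and 1.37 with LTK-14A. The ratio was lowest in the LTK-14A libraries, with a difference in mean log2 against DMSO of -1.73 (exact permutation test, two-sided p = 0.333, the smallest possible).

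Scap (ENSMUSG00000032485, chromosome 9, 110333288 to 110384950), the escort of both SREBPs, was at 316 and 470, 331 and 412, and 311 and 369 in untreated, DMSO and LTK-14A libraries. The groups overlapped throughout. The log2 fold change against DMSO was -0.12 (SE 0.22, adjusted p = 0.772, limma), with 95% limits of -0.63 and 0.38. Of its exon bases, 13.2% are shared with the opposite-strand gene 5830462I19Rik, which was at 58.7 to 100 in the 6 libraries.

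**Figure D2:**
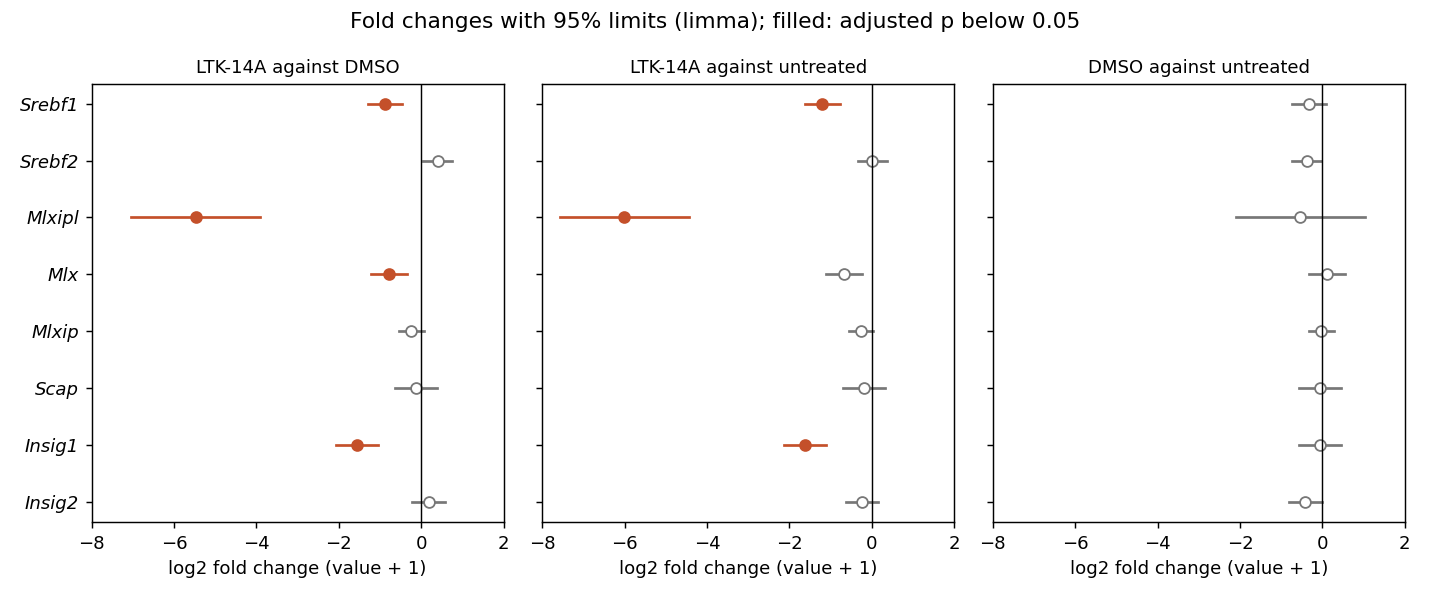
Log2 fold change of value plus 1 (horizontal axis) with 95% limits from limma for the 8 genes in 3 comparisons, filled where the adjusted p is below 0.05. Mlxipl, Insig1 and Srebf1 are past the threshold in both comparisons with LTK-14A, Mlx in that against DMSO, and none in DMSO against untreated.

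DMSO was the solvent control, and its comparison with untreated cells shows the change under solvent. None of the 8 genes passed in limma, where 0.0249% of tested genes did, and 2 of 8 had an unadjusted p below 0.05, against 5.83% of all genes. The log2 fold changes of these, Srebf2 and Insig2, were -0.38 (SE 0.15) and -0.41 (SE 0.17), both at an adjusted p of 0.804 (limma). The values of Srebf1, Srebf2, Mlxipl and Insig2 were lower in both DMSO libraries than in both untreated ones, and those of 0 were higher. Over all tested genes 33.1% were separate, 17.2% lower and 16% higher. For Mlxipl, at 99.4 and 99.0 against 142 and 146, the log2 fold change was -0.53 (SE 0.67, adjusted p = 0.863, limma). Its SE comes from all 6 libraries, and the values of 0 and 4.07 with LTK-14A enter it. None of the 8 passed in any of the 14 alternatives.

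In LTK-14A against untreated, 3 of the 8 fell and 0 rose, where 12.9% of tested genes changed, 8.17% lower and 4.68% higher. The 3 were Mlxipl, Insig1 and Srebf1. Without untreated replicate 2 their log2 fold changes were -5.99, -1.92 and -0.96, and all 3 stayed past the threshold. In both LTK-14A libraries 6 of the 8 had lower values than in both untreated ones, and 0 had higher. Over all genes 53.6% were separate in this way, 28.9% lower and 24.6% higher. An unadjusted p below 0.05 was found for 4 of the 8 and for 28.6% of tested genes.

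Levels of different genes were set side by side per kilobase of exon, which assumes values not already divided by gene length. Before this division, Mlx at 255 lay below Mlxip at 609 with DMSO, so the order depends on it. With DMSO, Insig1 was the highest, at 273 ± 9.58 (mean ± SD, n = 2). Srebf1 at 128 ± 6.91 and Mlx at 127 ± 4.34 followed and overlapped. Then came Mlxip at 73.1 ± 6.88, Insig2 at 65.3 ± 12.1 and Srebf2 at 63.8 ± 4.95, whose neighbours in this order overlapped. Scap was at 49.9 ± 7.62 and Mlxipl, the lowest, at 17.9 ± 0.0536. The untreated order also began with Insig1, Srebf1 and Mlx and ended with Scap and Mlxipl. With LTK-14A, the means of 6 genes lay between 61.9 and 93.7, in the order Insig1, Srebf2, Mlx, Insig2, Srebf1 and Mlxip, and of the neighbours only Srebf2 and Mlx did not overlap. Scap followed at 45.7 ± 5.50, and Mlxipl at 0 and 0.74. The length of the longest transcript, in place of all exons, left Insig1 first and Mlxipl last with DMSO but moved Mlxip from the 4th to the 7th place. With LTK-14A it put Srebf2, at 119, above Insig1, at 107.

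**Figure D3:**
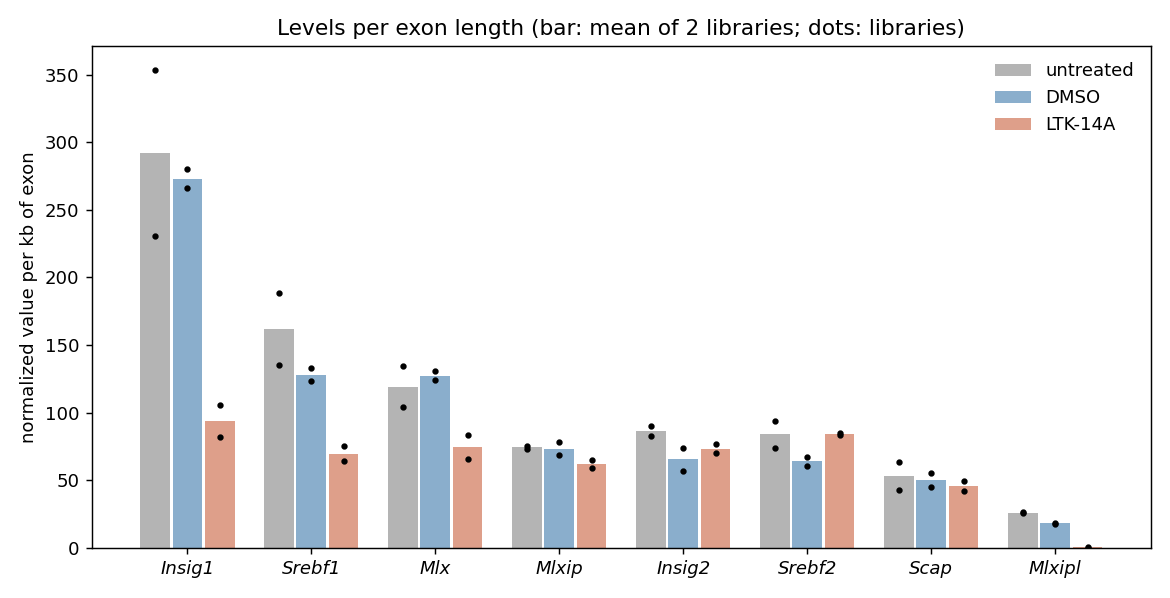
Normalized value per kilobase of exon (linear axis from 0) of the 8 genes, ordered by their mean with DMSO, as bars for the mean of 2 libraries and dots for each library. Insig1 is highest in untreated and DMSO cells, and with LTK-14A it comes down to 93.7, close to Srebf2 at 84.2. The order assumes values not already divided by gene length.

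The genes around the 8 regulators were described by lists. Against DMSO, 3215 of the 13179 genes whose mean reached 20 were called, a larger share than the 10.6% over all tested genes. Of 17 genes of SREBP cleavage and retention in the endoplasmic reticulum, 2 fell and 0 rose against DMSO, a share near the 10.6% called over all tested genes. The median log2 fold change was -0.14 against -0.05 over all tested genes. The 2 were Erlin2 (-0.74, SE 0.14), which takes part in the degradation of membrane proteins, and the ubiquitin ligase gene Rnf145 (-0.54, SE 0.12). Mbtps1, which encodes the protease that makes the first cut in SREBPs, did not pass, nor did Aup1, at -0.18 (SE 0.15). Mbtps1 was at 892 and 878 with DMSO and 904 and 940 with LTK-14A. Mbtps2, which encodes the protease of the second cut, was at 195 and 150 with DMSO and 306 and 269 with LTK-14A. Its groups were separate, but it did not pass (0.74, SE 0.20, adjusted p = 0.0596, limma). The count was 0 without the trend and without any one of the DMSO or LTK-14A libraries. It was 2 higher and 2 lower after quantile normalization, 1 higher and 3 lower in the fit of the 2 groups alone, among genes whose mean reached 20 or without untreated replicate 2, and 1 higher and 4 lower without untreated replicate 1. Against untreated, 1 of the 17 rose, Mbtps2 at 1.12 (SE 0.20, adjusted p = 0.0122, limma), and 4 fell. Of 11 genes of the COPII coat, which carries Scap and SREBPs to the Golgi, 0 passed in limma against DMSO. An unadjusted p below 0.05 was found for 3 of these, near the 26.3% of all tested genes. For Sec31a, one of these, the log2 fold change was 0.32 (SE 0.11, adjusted p = 0.118, limma), and for Sec24c it was -0.21 (SE 0.16). Without untreated replicate 1 or 2, or in the fit of the 2 groups alone, 1 coat gene was higher and 1 lower, and among genes whose mean reached 20, 1 was lower.

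Of 18 cofactors and inducers, 3 fell and 0 rose, where 6.58% of all tested genes fell and 3.98% rose. Among the 13179 genes whose mean reached 20, 1894 fell and 1321 rose. The list median was -0.0011. Nr1h3, the LXR alpha gene, whose product induces SREBP-1c, had values of 189 and 172 under solvent against 17.2 and 25.1 under LTK-14A. Its log2 fold change was -3.05 (SE 0.23). Ppargc1b, a coactivator of SREBP-1, and Nfyc, a subunit of NF-Y, also fell, with -2.03 (SE 0.18) and -1.66 (SE 0.20). The count of falls was 3 in all 14 alternatives, and 1 cofactor was higher in the fit of the 2 groups alone and without either untreated library. The partner subunits Nfya, at 0.37 (SE 0.13), and Nfyb, at -0.16 (SE 0.27), did not pass. Rxra and Hcfc1 did not pass either, at 0.15 (SE 0.13) and 0.03 (SE 0.11). In the MAX and MLX network, 9 of 10 genes were tested, of which 1 fell and 0 rose, again near the 10.6% over all tested genes. Mxd4, whose product can pair with MLX, went from 1198 ± 54.4 to 669 ± 69.4 (log2 fold change -0.84, SE 0.12, adjusted p = 0.00586, limma). Its sole call was lost without the trend, without either DMSO library and without LTK-14A replicate 1. Mga and Mxd1 did not pass, at 0.29 (SE 0.16) and 0.43 (SE 0.13). In the fit of the 2 groups alone and without either untreated library, 2 of the network were higher and 1 lower, and with the replicate block or among genes whose mean reached 20, 1 was higher and 1 lower.

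Genes known to answer to these factors formed 3 lists. The 14 adipocyte markers all fell against DMSO, with a median log2 fold change of -3.63. Their part in the falls of these lists was not tested. Against DMSO, 6.58% of all tested genes fell and 3.98% rose. Of the 13179 genes whose mean reached 20, 1894 fell and 1321 rose. Of 23 sterol genes known as SREBP-2 targets, 11 fell and 0 rose, with a median log2 fold change of -0.77. Dhcr7, an enzyme gene of cholesterol synthesis, was at 443 and 454 with DMSO and 131 and 126 with LTK-14A (-1.79, SE 0.15). Acat2 and Sqle, the squalene epoxidase gene, had log2 fold changes of -1.66 (SE 0.17) and -1.62 (SE 0.27). The genes with the highest means that did not pass were Lss and Msmo1, at -0.58 (adjusted p = 0.0513, limma) and -0.47. The count of falls was 5 without the trend and 3 to 6 without any one DMSO or LTK-14A library. Against untreated, 15 of the 23 fell and 0 rose, with 6 falls without the trend and 7 to 16 with 1 library left out.

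Of 15 fatty acid genes known as SREBP-1 targets, 12 fell and 0 rose, with a median of -1.48. Fads1, a desaturase gene, and Elovl5, an elongase gene, did not pass, at -0.06 (SE 0.13) and -0.18 (SE 0.18), nor did Elovl6, at -0.03 (SE 0.36). Pnpla3, a lipase-like gene, was at 691 and 681 with DMSO and 5.40 and 9.16 with LTK-14A (-6.41, SE 0.23). The desaturase gene Scd1 was at 105795 and 96515 against 4032 and 4316. Fasn, the fatty acid synthase gene, and Lpin1 had log2 fold changes of -3.24 and -2.89. The count of falls was 11 or 12 in all 14 alternatives. Of 17 genes known as ChREBP targets, 14 were tested, 9 fell and 0 rose, with a median of -1.50. This list shares 7 genes with the one before: Acly, Acaca, Fasn, Scd1, Elovl6, Me1 and Pnpla3. All of these but Elovl6 are among the falls, so most falls are shared. Of the tested genes on this list alone, Gpd1, Thrsp and Mid1ip1 fell, and Txnip, Arrdc4, Khk and Tkfc did not pass. Pklr and Fgf21, which are known ChREBP targets in liver, were listed at 0 in all 6 libraries. Gpd1, which makes glycerol phosphate, fell with a log2 fold change of -7.53 (SE 0.29) and Thrsp, a lipogenic factor, with -5.82 (SE 0.23). The count was 9 in all 14 alternatives. Txnip, a glucose-induced gene known as a target of both ChREBP and MondoA, was at 4281 and 4159 with DMSO and 4788 and 4216 with LTK-14A. It did not pass (0.09, SE 0.12, adjusted p = 0.676, limma). Its relative Arrdc4, also induced through MondoA, did not pass either, at 347 ± 36.5 and 276 ± 7.21 (-0.33, SE 0.18). Khk and Tkfc, both of fructose breakdown, had log2 fold changes of -0.69 (SE 0.31) and -0.12 (SE 0.21). In DMSO against untreated, 0 genes of these 3 target lists passed in limma. An unadjusted p below 0.05 was found for 4 of 23, 2 of 15 and 2 of 14, against 5.83% of all tested genes. The 2 of 15 and the 2 of 14 are the same genes, Acly and Fasn.

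**Figure D4:**
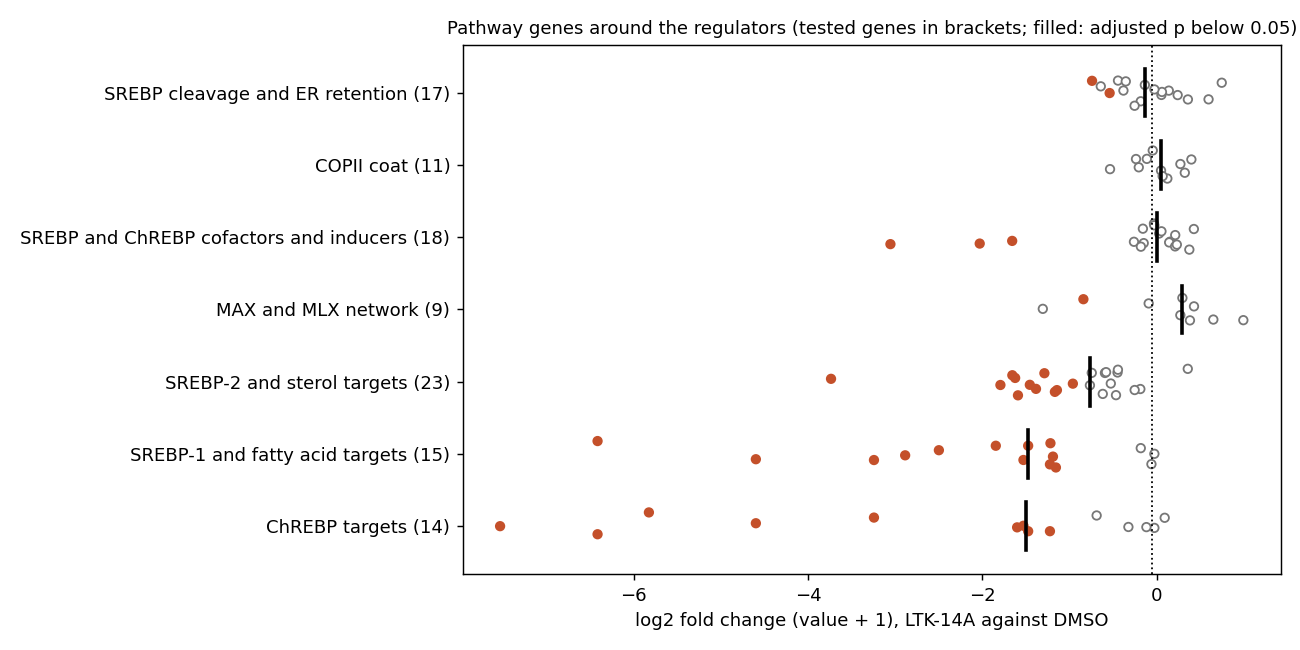
Log2 fold change of value plus 1 for LTK-14A against DMSO (horizontal axis), 1 point per tested gene in 7 lists, filled where the adjusted p is below 0.05, with a thick bar at the list median and a dotted line at the median of all tested genes. The medians of the 3 target lists lie at -0.77, -1.48 and -1.50, and those of the other 4 between -0.14 and 0.29.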

How the data were processed

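Total RNA libraries of 6 samples of 3T3L1 cells were grouped by the treatment in their titles. The authors deposited 1 table of 53342 genes whose values are on a log10 scale of log2 normalized values, as read from the values, since no header states it. They were turned back as 2 to the power of 10 to the value, and a deposited 0 was kept as 0. As this scale cannot hold a value of 1 or less, any listed 0 can stand for a value of up to 1. Coordinates are those of mm10, the build in the submitters' processing notes. No source used here names an aligner, a counting tool, a strand setting or a normalization, so real depth is unknown. The planned limma test was used.

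A gene was kept where 2 or more samples reached a value of 1. In R 4.3.3, limma 3.58.1 with a variance trend fitted 3 group means to log2(value + 1) of all 6 samples, two-sided, with Benjamini-Hochberg adjustment over 24139 genes. Fold changes on this scale understate the change of low genes. The fit was also run on simulated data, with 2-fold and 4-fold changes placed only in genes at 20 or more with DMSO. A fall as large as that of Mlxipl was not simulated. Exon lengths came from GENCODE vM21, which lists 53237 of the identifiers and 51270 at the same coordinates, all 8 genes but Srebf2 among them. Promoters came from RefSeq (GRCm38.p6). The SREBP cleavage gene Spring1 was matched by its synonym 2410131K14Rik.

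The 8 genes and all lists were chosen with earlier results of these data known. Named from each list were up to 4 genes with the largest change past the threshold and a mean of at least 20, and up to 2 of the highest that did not pass. Further genes of the lists were named after their values were seen. They are Mbtps2, Elovl6, Nfya, Nfyb, Khk, Tkfc, Acly, Acaca, Me1, Mid1ip1, Lpl, Pdgfra, Pdgfrb, Ly6a, Cd34 and those at 0. Some genes of the lists are counted but not reported by name here. For the 4 genes past the threshold, the 3 most similar were named. Alternatives were another pseudocount, 2 other filters, 2 other scalings, no trend, the 2 groups alone, a replicate block and each library left out. Python 3.11.15, numpy 2.4.6, scipy 1.17.1 and matplotlib 3.10.9 were used.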

Additional observations from a re-analysis of the deposited data

How the results depend on the processing

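The count of 4 changed regulators in LTK-14A against DMSO became 1 without the variance trend, and it ranged from 1 to 5 with a library left out. Mlxipl stayed past the threshold in each of these settings. In LTK-14A against untreated the count of 3 became 1 without the trend and ranged from 1 to 4 with a library left out. The counts of all changed genes, 2548 for inhibitor against solvent, 6 for solvent against untreated and 3103 for inhibitor against untreated, moved too. Without the trend the first was 1205 and the third 1387. In fits of the 2 groups alone the second was 0 and the third 2044, and with a pseudocount of 0.1 the second was 3. With a library left out they ranged from 591 to 3629, from 0 to 109 and from 867 to 4016. Leaving out a library leaves its group with 1, which is then taken to vary like the others.

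Signs turned for regulators that did not pass. In DMSO against untreated, Mlxip had log2 fold changes of 0.0304 after quantile normalization and 0.0150 after scaling without ribosomal and small RNA loci. With a library left out, that comparison ranged from -0.37 to 0.24 for Insig1, -0.0753 to 0.29 for Mlx, -0.12 to 0.0687 for Mlxip and -0.35 to 0.22 for Scap. In LTK-14A against DMSO it ranged from -0.0106 to 0.37 for Insig2 and from -0.28 to 0.0323 for Scap. In LTK-14A against untreated it ranged from -0.16 to 0.19 for Srebf2 and from -0.47 to 0.10 for Scap. The cause was not tested. With the replicate number as a block, 4, 0 and 3 regulators and 2635, 5 and 3269 genes changed in the 3 comparisons. The differences between replicates 1 and 2 correlated across 13179 genes at 0.17, 0.05 and -0.02 between pairs of groups, so the numbers are not taken to pair the libraries. The longest transcript in place of all exons moved 18 of 24 levels per kilobase by over 1 SD. Unknown depth limits what can be said of low values such as those of Mlxipl with LTK-14A.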
